A study of Mus musculus with 216 samples.

Results

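The genes described here are 36 imprinted genes of 20 clusters that lie outside the Kcnq1-Igf2 cluster on chromosome 7. They were taken by name from a fixed list, and every H3K9me3 domain that met a gene body or the 5 kb to either side of it (the window) was read from the authors' deposited domain table. All 36 names matched 1 gene among the 31868 GENCODE vM21 genes of the same annotation types, and their windows held 26 of 42890 domains on the numbered and sex chromosomes. Another 149 domains on other sequences were not used.

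The series followed H3K9me3, the histone mark of constitutive heterochromatin, and the H3K9me3-binding protein HP1β by ChIP-seq in the mouse embryonic stem cell line dTKO. The line carries floxed Suv39h1, homozygous loss of Suv39h2 and floxed Setdb1 (Suv39h1fl/fl; Suv39h2-/-; Setdb1fl/fl), which are genes of H3K9 methyltransferases. All cells were grown in LIF and serum, and all groups shared this genotype. Cells received auxin at 100 µg/ml with dTAG13 at 0.5 µM, which are degrader compounds, and were collected at 0, 1, 3, 12, 24 and 48 h. The 216 samples are sequencing runs, with 9 per time for H3K9me3, for HP1β and for the input of each. No wild-type line and no untreated later time was analysed here, and the sources used here do not say which protein carries which degron tag.

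Each H3K9me3 domain in the table has coordinates and 1 of 4 named decay classes, which are fast, intermediate, slow and residual. The classes rank how quickly the mark was lost over the time course, residual being the domains that kept it, as the class names read. The sources used here do not give the limits between them. The table holds 0 columns of sample values, so no domain has a replicate error or a known depth, and every comparison below is a description of 1 deposited classification with no test. A place outside every domain need not lack the mark, since only called domains are listed and no signal was read. The labelled cell type was not checked against markers, since the table holds no expression.

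Imprinted genes are expressed from a single parental copy. For many of them the choice is set by DNA methylation laid down in the egg or sperm and kept through early development. It lies at a control region, the germline differentially methylated region (DMR). The zinc finger protein ZFP57 is known to bind the methylated hexamer TGCCGC at such regions and to recruit KAP1 and SETDB1, which deposits H3K9me3 on the methylated copy. Many of these control regions are CpG-rich promoters, often of a noncoding RNA or of a retrogene nested in a host gene.

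The ZFP57 hexamer is shown first, in stretches inside domains and then at promoters that lay outside every domain. Each is read from the plus strand of RefSeq GRCm38.p6, with TGCCGC on either strand (read as TGCCGC or GCGGCA; these can share a GC, and both then count) in capitals. The first 6 are the hexamer-richest stretches of domains in 6 of the 9 clusters with a hexamer in a domain, 1 per cluster with ties in list order, taken from 300 bp bins of the table's own grid after annotated UTRs were left out. The Peg10-Sgce, Nap1l5-Herc3 and Cdh15 clusters are not printed. The Grb10 stretch lies in the residual domain, in an intron near the gene start and inside a CpG island. The Igf2r, Inpp5f and Commd1 stretches lie in slow domains, in an Airn intron, in no gene and in an intron of Gm28048. The Zim1 and Gnas stretches lie on exons, in intermediate domains.

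Grb10, chr11:12036901-12037191: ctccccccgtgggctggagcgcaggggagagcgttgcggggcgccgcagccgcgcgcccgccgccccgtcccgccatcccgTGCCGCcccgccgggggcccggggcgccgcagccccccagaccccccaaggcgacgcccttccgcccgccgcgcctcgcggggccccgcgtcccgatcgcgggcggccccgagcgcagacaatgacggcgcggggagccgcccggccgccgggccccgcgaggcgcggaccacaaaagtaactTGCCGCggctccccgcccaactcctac
Igf2r, chr17:12771301-12771600: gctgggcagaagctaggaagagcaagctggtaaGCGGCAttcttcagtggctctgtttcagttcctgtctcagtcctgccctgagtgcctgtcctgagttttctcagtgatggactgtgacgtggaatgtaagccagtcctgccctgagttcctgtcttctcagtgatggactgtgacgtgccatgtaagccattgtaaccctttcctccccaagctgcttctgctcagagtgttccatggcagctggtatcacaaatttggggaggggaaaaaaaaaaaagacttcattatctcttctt
Zim1, chr7:6677701-6678000: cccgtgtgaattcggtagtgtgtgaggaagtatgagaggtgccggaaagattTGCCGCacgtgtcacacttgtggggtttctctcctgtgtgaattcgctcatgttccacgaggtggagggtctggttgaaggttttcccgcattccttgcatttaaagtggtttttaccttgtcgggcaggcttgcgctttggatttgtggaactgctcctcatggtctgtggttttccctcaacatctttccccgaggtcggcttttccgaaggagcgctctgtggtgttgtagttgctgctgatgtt
Gnas, chr2:174327301-174327600: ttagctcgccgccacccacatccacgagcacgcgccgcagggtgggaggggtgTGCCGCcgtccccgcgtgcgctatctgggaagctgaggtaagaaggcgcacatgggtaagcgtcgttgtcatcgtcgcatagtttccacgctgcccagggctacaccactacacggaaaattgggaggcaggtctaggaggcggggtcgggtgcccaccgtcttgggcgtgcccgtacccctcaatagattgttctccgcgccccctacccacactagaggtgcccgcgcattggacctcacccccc
Inpp5f, chr7:128600401-128600700: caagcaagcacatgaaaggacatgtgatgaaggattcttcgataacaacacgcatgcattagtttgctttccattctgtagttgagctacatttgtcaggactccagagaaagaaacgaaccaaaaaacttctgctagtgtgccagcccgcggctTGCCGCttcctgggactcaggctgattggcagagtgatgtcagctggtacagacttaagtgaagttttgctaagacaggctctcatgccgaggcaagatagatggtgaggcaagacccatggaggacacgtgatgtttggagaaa
Commd1, chr11:22892101-22892400: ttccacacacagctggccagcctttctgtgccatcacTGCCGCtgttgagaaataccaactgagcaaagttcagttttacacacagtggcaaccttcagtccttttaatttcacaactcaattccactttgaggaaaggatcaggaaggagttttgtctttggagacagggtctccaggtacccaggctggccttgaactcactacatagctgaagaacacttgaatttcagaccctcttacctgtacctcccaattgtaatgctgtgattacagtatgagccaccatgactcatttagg

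The last 2 were taken at promoter CpG islands that lay outside every domain, at Peg3 and Mest. Both are annotated as intron, and the Mest stretch starts 50 bp before its island. They were chosen after the values were seen.

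Peg3, chr7:6729901-6730200: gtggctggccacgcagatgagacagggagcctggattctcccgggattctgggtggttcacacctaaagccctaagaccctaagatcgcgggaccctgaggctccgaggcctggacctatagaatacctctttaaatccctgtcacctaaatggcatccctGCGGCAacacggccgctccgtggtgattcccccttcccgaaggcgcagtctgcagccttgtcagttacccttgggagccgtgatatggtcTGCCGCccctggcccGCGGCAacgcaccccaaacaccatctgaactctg
Mest, chr6:30737701-30738000: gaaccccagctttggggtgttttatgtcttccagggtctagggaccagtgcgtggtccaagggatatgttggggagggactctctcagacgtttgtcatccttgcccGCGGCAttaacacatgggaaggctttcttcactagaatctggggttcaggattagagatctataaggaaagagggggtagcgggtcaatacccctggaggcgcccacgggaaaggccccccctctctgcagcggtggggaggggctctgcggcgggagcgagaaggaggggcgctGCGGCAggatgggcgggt

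The printed Peg3 stretch held 3 hexamers, and the Grb10 and Mest stretches held 2 each, while the other 5 held 1 each. Of the 404 bins in the domains of these genes, 27 (6.68%) held at least 1 hexamer and 3 (0.743%) held at least 2. The most in a bin was 3, counted over whole bins with annotated UTRs kept in. Over the 570533 bins of all domains, 4.22% held at least 1, 0.172% at least 2 and 0.0142% at least 3. Of 32851 RefSeq promoters of the same 300 bp, 11.6% held at least 1, 1.53% at least 2 and 0.234% at least 3. A match of these letters is a description and says nothing of binding.

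Across the 36 genes, intermediate domains were the most numerous and no fast domain occurred. The windows held 15 intermediate domains (57.7%), 8 slow (30.8%), 3 residual (11.5%) and 0 fast. Over all domains the shares were 71.5% intermediate, 20.5% slow, 4.57% residual and 3.49% fast. Over the 16137 domains in the window of any gene they were 68.6%, 20.5%, 7.67% and 3.25%. A single fast domain among 26 would already have been a larger share than the fast class has over all domains.

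By length the order changed, since 1 domain was far wider than the rest. The domains covered 121.2 kb, of which residual domains made up 48.9 kb (40.3%), intermediate 39.9 kb (32.9%) and slow 32.4 kb (26.7%). Over all domains, residual ones made up 4.86% of the covered length. The residual domain at Grb10 alone was 44.4 kb. Without it the residual share of the covered length was 5.86%, and by number it was 8.0%. The median width was 2.25 kb, between 0.9 and 44.4 kb, against 3.0 kb over all domains. Slow domains of these genes had a median of 1.5 kb, against 4.2 kb over all slow domains, but this differed by chromosome. On chromosomes 8 and 11 their 4 slow domains had a median of 1.35 kb, against 3.0 kb for all slow domains there. On the other chromosomes their 4 slow domains had a median of 5.85 kb, against 5.1 kb over the other autosomes.

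**Figure D1:**
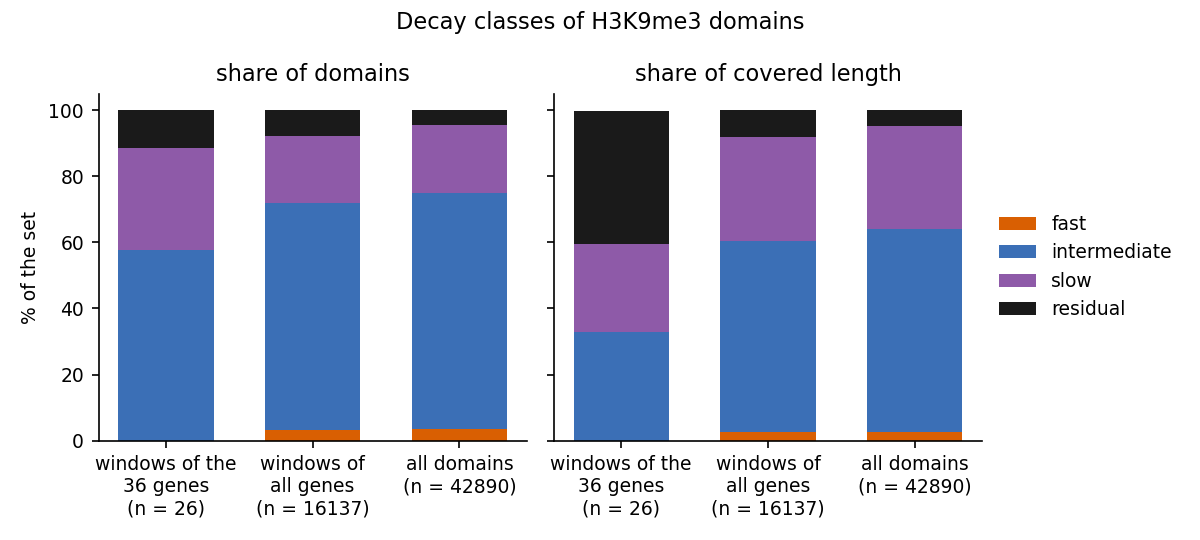
Decay classes of H3K9me3 domains in the windows of the 36 imprinted genes, in the windows of all genes of the same types and over all domains. Stacked bars give the percentage of the number of domains (left) and of the covered length (right), with n the number of domains. Residual domains are 11.5% of the 26 domains by number and 40.3% by length, with 44.4 kb of the 48.9 kb in 1 domain.

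A domain lay in the window of 17 of the 36 genes (47.2%), where the share over all genes was 32.3%. An intermediate domain lay in the window of 12 genes (background 24.2%), a slow one in 8 (background 9.23%), a residual one in 2 (background 3.93%) and a fast one in 0 (background 1.75%). The 2 genes with a residual domain, Grb10 and Rasgrf1, are 5.56% of the 36, near the share over all genes.

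Window length moved with these counts. The imprinted genes had a median length of 38.2 kb, against 12.9 kb for all genes. In windows up to 20 kb, 0 of 8 imprinted genes had a domain, against 2920 of 13917 of all genes of that size. From 20 to 50 kb it was 3 of 11 (all genes 29.7%), from 50 to 100 kb 8 of 11 (45.4%), and over 100 kb 6 of 6 (73.0%). The background shares of these size groups would give 14.3 of the 36 genes, against the 17 counted. The part of window length in the counts by class was not tested.

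**Figure D2:**
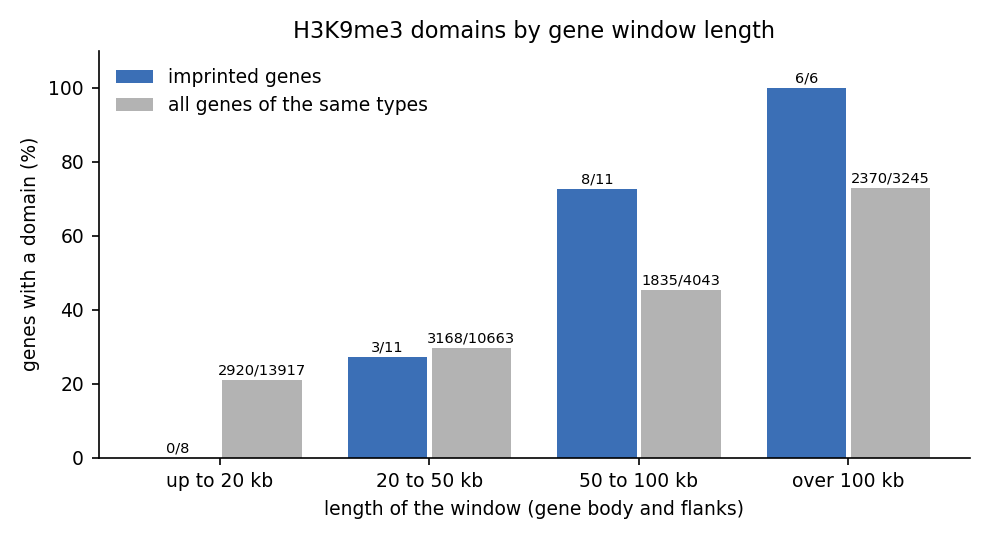
Percentage of genes with an H3K9me3 domain by length of the window (gene body with 5 kb to either side), for the 36 imprinted genes and for all genes of the same types. Numbers above the bars give genes with a domain over genes in that group. The share goes from 0/8 to 6/6 among the imprinted genes and from 2920/13917 to 2370/3245 among all genes.

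At promoters (1 kb to either side of any annotated transcript start) a domain was found for 6 genes, 16.7% of the 36 against a background of 7.79%. These were Igf2r, Airn, Usp29, Grb10, Gnas and Inpp5f. Airn, Usp29 and Gnas count only through inner transcript starts, and within 1 kb of the annotated gene start alone the count was 3 (background 5.58%). A slow domain lay at a promoter of 3 of them, Igf2r, Grb10 and Inpp5f (background 1.57%), and a residual one at a promoter of Grb10 (background 1.54%). Of the 26 domains, 8 lay at a promoter, 12 met an exon, 10 lay only in introns and 4 lay wholly in the flanks. Only Grb10 had its annotated gene start inside a domain, and 5 of the 36 gene starts lay within 5 kb of one, against 3.28% and 14.6% of all gene starts. The plot of windows shows these positions for each gene with a domain.

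**Figure D3:**
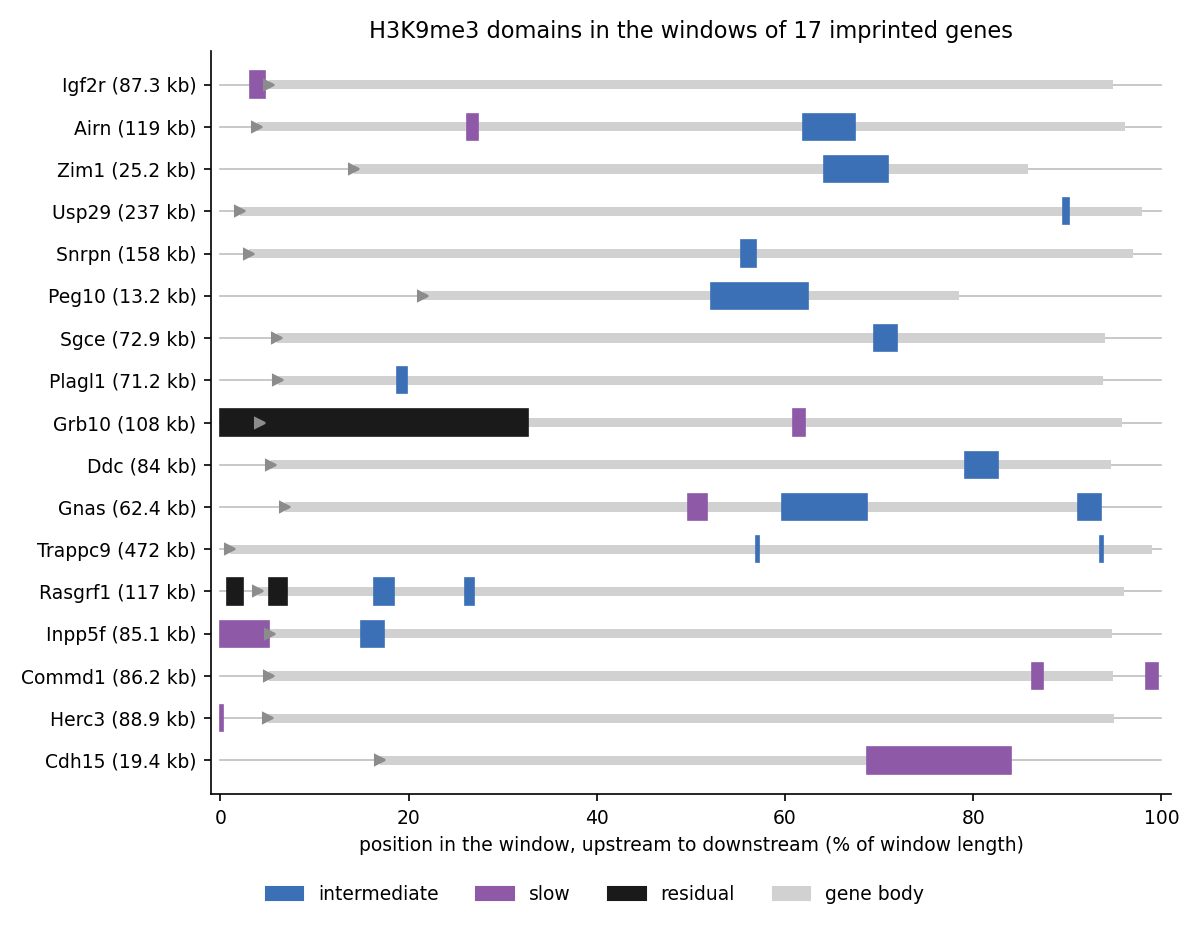
H3K9me3 domains in the windows of the 17 imprinted genes that had one, coloured by decay class. The horizontal axis is the position in the window as a percentage of its length, in the direction of transcription; arrowheads mark the gene start, grey bars the gene body, and labels give the body's length. Domains at Grb10, Igf2r, Inpp5f and Rasgrf1 sit at or beside the gene start, and most others lie inside the body.

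Grb10 had the widest domain of the set. Grb10 encodes an adaptor protein that dampens insulin and growth factor signalling and restrains growth. Its residual domain, chr11:12005101-12049500, spanned 44.4 kb, from 10.8 kb upstream of the gene start to 33.6 kb downstream, and covered 33.6 kb of the 108 kb gene body. It ranked 5 by width among 1960 residual domains and 13 among all 42890. It held 5 of the 9 transcript starts of Grb10, the gene start included, and both of the gene's promoter CpG islands. These islands, chr11:12036251-12038200 and chr11:12025351-12026950, held 5 and 4 hexamers. The germline methylation of Grb10 is known to sit at an internal promoter island. That island was not on the germline list used below, and the point was noted after the values were seen. Only 12.5% of the domain was repeat sequence as soft-masked in the reference, and 99.4% of the 31-base words sampled in it occurred once in the reference.

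The other Grb10 domain, chr11:11970301-11971800, was slow, 1.5 kb wide and held an inner transcript start 68.0 kb downstream. The neighbour Ddc, which encodes the decarboxylase that makes dopamine and serotonin, had 1 intermediate domain of 3.3 kb in an intron (chr11:11825401-11828700). Within 250 kb of the pair lay 16 domains: 9 slow, 5 residual and 2 intermediate. The map of this region shows the wide residual domain over the first part of Grb10 and slow or residual domains on both sides.

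Chromosomes 8 and 11 held more residual and slow domains than the other autosomes. There, all domains were 19.5% residual and 42.8% slow, against 2.25% and 18.1% on the other autosomes. The 5 imprinted genes on these chromosomes had 6 domains (1 residual, 4 slow, 1 intermediate), and those on the others had 20 (2 residual, 4 slow, 14 intermediate). The part of the chromosome in the Grb10 class was not tested.

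**Figure D4:**
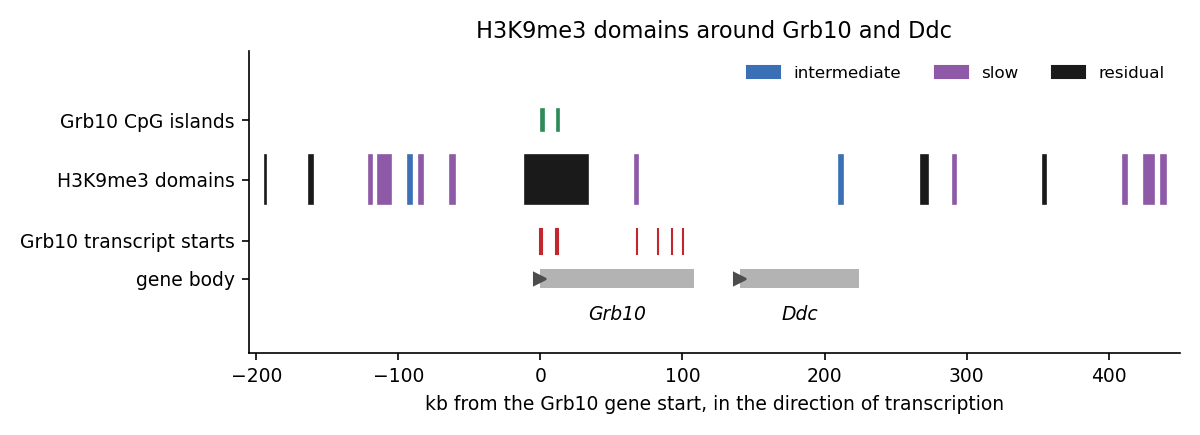
H3K9me3 domains around Grb10 and Ddc, in kb from the Grb10 gene start along the direction of transcription. Blocks are domains coloured by decay class, grey bars gene bodies with arrowheads at their starts, red ticks Grb10 transcript starts and green blocks its promoter CpG islands. The 44.4 kb residual domain covers the gene start, both islands and 5 of the 9 transcript starts.

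Rasgrf1 had the other 2 residual domains, on either side of its promoter. Rasgrf1 encodes an exchange factor that activates RAS, and the paternal copy is the expressed one. The residual domain chr9:89905801-89907900 (2.1 kb) ended 2.01 kb upstream of the gene start, and chr9:89911501-89913900 (2.4 kb) began 1.59 kb downstream and met an exon. The promoter CpG island, chr9:89908301-89911500, filled the gap between them, 400 bp from the first and directly against the second. Neither domain held the hexamer or a CpG island. Their ratios of observed to expected CpG were 0.134 and 0.123, against a median of 0.193 over all residual domains. Further into the gene lay 2 intermediate domains, chr9:89925601-89928300 on an exon and chr9:89937901-89939100 in an intron, the latter 97.6% repeat. The control region of Rasgrf1 is known to lie upstream of the gene. In the 50 kb upstream the one domain was the residual domain beside the promoter, ending 2.01 kb before the gene start. The control region itself was not placed, so this domain is not read as lying on it. Chromosome 9 was not rich in the class, with 2.17% of its domains residual.

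At Igf2r and Airn, a slow domain touched the Igf2r promoter and an intermediate one lay at an inner start of Airn. Igf2r encodes the receptor that clears the growth factor IGF2 and is expressed from the maternal copy, and Airn is the antisense noncoding RNA that silences it on the paternal copy. The slow domain, chr17:12770101-12771600 (1.5 kb), lay 0.437 kb upstream of the Igf2r start, in an Airn intron, and shared 150 bp with the promoter CpG island of Igf2r. The intermediate domain, chr17:12816001-12823200 (7.2 kb), began 0.07 kb from an inner Airn transcript start and met an exon. The Airn promoter, which is the germline DMR and lies in an intron of Igf2r, was 28.8 kb from the nearest domain. Its island held 8 hexamers in 1.45 kb.

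At Gnas, 3 domains lay in the downstream part of the gene. Gnas encodes the stimulatory G protein alpha subunit and has several imprinted promoters, and Nespas is an antisense RNA at its upstream end. The intermediate domain chr2:174322501-174329100 (6.6 kb) held 6 of the 16 Gnas transcript starts, between 43.2 and 43.7 kb from the gene start, and 2.2 kb of a CpG island. This is the exon 1A promoter, known as a germline DMR, which was likewise not on that list. The part of the island in the domain held 4 hexamers and the whole island 6. A slow domain of 1.5 kb (chr2:174315301-174316800) lay in an intron, and an intermediate one of 1.8 kb (chr2:174345301-174347100) lay at the 3′ end, 0.651 kb from an inner transcript start. Nespas had no domain, and its start was 19.9 kb from the nearest.

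Inpp5f and Herc3 had the other 2 domains over 10 kb, both slow and both upstream of the gene. Inpp5f, which encodes an inositol phosphatase, had chr7:128600401-128611200 (10.8 kb), ending 0.128 kb before the gene start and 50 bp before the promoter CpG island. Herc3, which encodes a HECT ubiquitin ligase and hosts the retrogene Nap1l5, had chr6:58816501-58826700 (10.2 kb), ending 4.76 kb before its start. Both were mostly repeats, 75.2% and 75.8% soft-masked, with 43.1% and 18.1% of sampled 31-base words occurring once. Reads in such sequence can belong to other copies, so these classes are less certain for the place itself. Inpp5f also had an intermediate domain of 2.4 kb in an intron (chr7:128620501-128622900).

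The Peg3 cluster, of imprinted zinc finger genes and the ubiquitin protease gene Usp29, had 2 intermediate domains and none at the shared Peg3 and Usp29 promoter. Zim1 had chr7:6676501-6678900 (2.4 kb) on an exon, with 2 hexamers. Usp29 had chr7:6946501-6948000 (1.5 kb) at an inner start 217.0 kb downstream, which was 100.0% soft-masked with 6.67% unique words. Peg10, a gene derived from a retrotransposon, had chr6:4754401-4756800 (2.4 kb) on an exon 7.09 kb from its start, holding a CpG island of 500 bp. Its neighbour Sgce, which encodes epsilon-sarcoglycan, had chr6:4692601-4694700 (2.1 kb) on an exon. Snrpn, which encodes a spliceosome protein, had chr7:60049801-60052500 (2.7 kb) in an intron, and the zinc finger gene Plagl1 had the smallest domain of the set, chr10:13070701-13071600 (0.9 kb), also in an intron. All 6 were intermediate.

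Trappc9, a trafficking gene that hosts the noncoding Peg13, had 2 intermediate intron domains, chr15:72614701-72615900 (1.2 kb) and chr15:72790501-72792000 (1.5 kb). The second was 18.3 kb from the Peg13 start. Commd1, which encodes a protein of copper handling and hosts the retrogene Zrsr1, had 2 slow domains of 1.2 kb, chr11:22903201-22904400 in an intron and chr11:22891501-22892700 just downstream. The Zrsr1 start was 63.8 kb from the nearest domain. Cdh15, which encodes M-cadherin of muscle, had a slow domain of 4.5 kb on an exon, chr8:122863201-122867700, over 21.6% of its body. On chromosome 8, 45.4% of all domains were slow.

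No domain lay in the windows of the other 19 genes. They were the zinc finger gene Peg3, the Prader-Willi region genes Ndn, Magel2 and Mkrn3, Mest, Nespas, the membrane protein gene Nnat, Impact, Peg13, all 4 genes of the Dlk1 cluster (the ligand gene Dlk1 and the noncoding Meg3, Rian and Mirg), Mcts2 and its host H13, Zrsr1, Zdbf2, the amino acid transporter gene Slc38a4 and Nap1l5. The starts of Rian and Ndn were nearest to a domain among the genes without one, at 8.24 and 10.8 kb. Farther off were Mest at 80.0 kb, Nap1l5 at 80.4 kb and Mirg at 88.5 kb. For all 36 genes the median distance from gene start to nearest domain was 22.7 kb, against 28.1 kb for all genes. The cluster regions with 250 kb to either side held 15.9 domains per Mb, against 15.7 over the genome. Their 234 domains were 68.8% intermediate, 25.6% slow, 4.27% residual and 1.28% fast.

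Some intervals between or upstream of the genes were also looked at, and not each is known to hold a control region. Between Dlk1 and Meg3, 77.7 kb that are known to hold the control region of that cluster, lay 1 slow domain of 3.6 kb (chr12:109482901-109486500), ending 54.5 kb before Meg3. Between Meg3 and Mirg lay 1 intermediate domain of 5.7 kb. Between Ndn and Mkrn3 lay 1 intermediate domain of 1.5 kb. The 50 kb upstream of Zdbf2 held none.

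Promoters known as germline DMRs were read next. A list of 15 of the 36 genes whose promoter is, as background, a germline DMR gave 6 genes with a domain in the window, all with an intermediate one, 1 also with a slow one and 0 with a residual one. That is 40.0% with a domain, against 52.4% (11) of the other 21 genes and 32.3% of all genes. Median gene lengths were 24.9 kb for the 15, 57.8 kb for the other 21 and 12.9 kb for all genes. The part of length in these shares was not tested. Over all genes, 24.2% had an intermediate domain and 9.23% a slow one. With 3.93% of all genes having a residual domain, the 0 of 15 is near the background. Promoter CpG islands (500 bp or more, at least 55% GC and an observed to expected CpG ratio of at least 0.65) numbered 33 for the 36 genes. A domain met 4 of these (12.1%), at Igf2r, Gnas and both Grb10 islands, where the background over 13321 promoter islands was 3.62%. At genes on the germline list, 0 of 14 islands met a domain, which is near the background. These are all promoter islands of the listed genes, so some need not be the DMR itself, and Snrpn had none. The count of 0 of 14 depends on the list. The internal Grb10 island and the Gnas exon 1A island were not on it. As background both are also germline DMRs, and both met a domain. With them it was 2 of 16, an alternative chosen after the values were seen. It adds only islands that met a domain. The other unlisted islands, such as the inner Inpp5f island 64.9 kb from a domain, were not sorted by germline status. For the 14, the nearest domain was 6.45 to 94.3 kb away, with a median of 26.3 kb, against 36.3 kb over all promoter islands. The table does not separate the parental copies, and methylation of these islands was not measured.

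The hexamer was unevenly spread over the same 14 islands. Together they held 3.51 per kb, with a median of 4.5 per island, against 0.906 per kb over all promoter islands and 1.28 per kb at promoters of the other genes. The Mest island held 8 and lay 94.3 kb from a domain, and the island shared by Peg3 and Usp29 held 7 and lay 50.4 kb away. An inner Plagl1 island and the Nnat island held 6 each, at 18.8 and 19.4 kb, and those of Peg13 and Nap1l5 held 5 each, at 17.4 and 79.7 kb. The island shared by Peg10 and Sgce held 2 and was nearest, at 6.45 kb. The other Plagl1 island, 9.2 kb from a domain, and the Nespas island held 0, the island shared by Zrsr1 and Commd1 held 1 and that shared by Gnas and Nespas held 2. An inner Inpp5f island, not on the list, held 6 and lay 64.9 kb away. So islands with 4 or more hexamers lay both wholly or partly in domains, at Grb10 and Gnas, and far from them. The printed Grb10, Peg3 and Mest stretches were taken at such islands. H3K9me3 signal was not read, so an island far from a called domain need not be free of the mark. Per kb, the Gnas island held 1.32 and the Grb10 islands 2.56 and 2.5, against 5.83 at Peg3 and 8.42 at Mest.

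**Figure D5:**
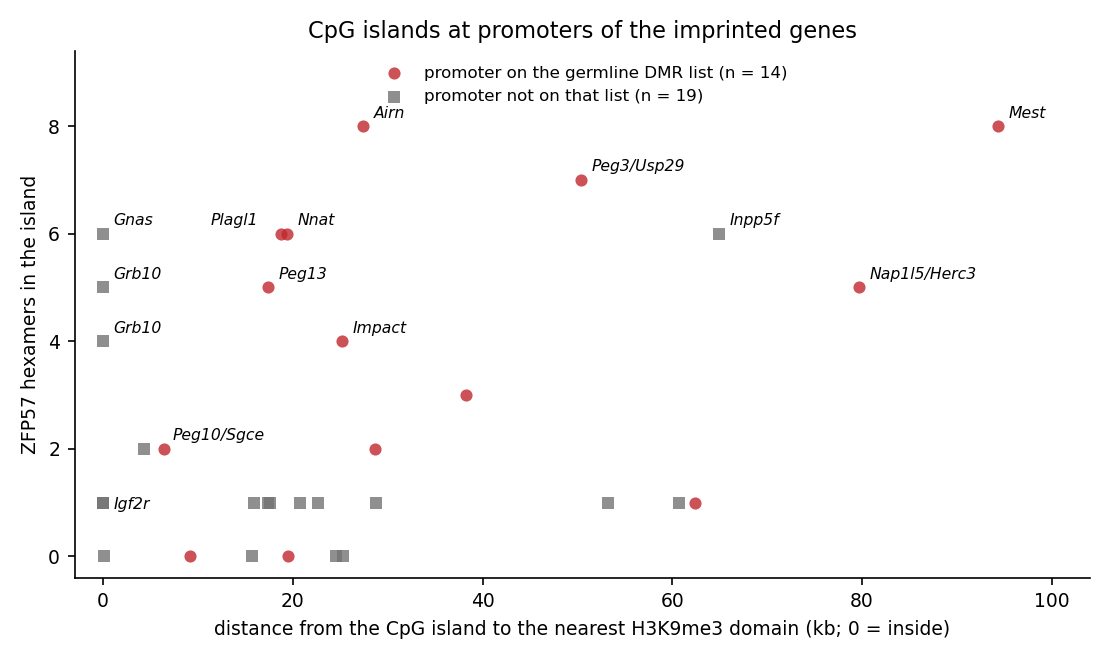
CpG islands at promoters of the 36 imprinted genes. The horizontal axis is the distance in kb to the nearest H3K9me3 domain (0 is inside; the Rasgrf1 and Inpp5f start islands lie within 0.1 kb and plot near 0), the vertical axis the number of TGCCGC hexamers in the island. All 14 promoter islands of genes on the germline DMR list lie at 6.45 kb or more, and not each need be the DMR itself. Those with 5 or more hexamers lie at 17.4 to 94.3 kb.

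Of the listed genes, 5 are retrogenes or noncoding RNAs nested in a host. The starts of Peg13, Mcts2, Nap1l5, Zrsr1 and Airn lay 18.3 to 80.4 kb from the nearest domain, where the median over all gene starts was 28.1 kb. Of the 5 hosts, 4 had a domain in their own window, where the share over all genes was 32.3%. The hosts were 39.2 to 472 kb long, against a median of 12.9 kb for all genes. Of the 6 noncoding genes 1, Airn, had a domain, and of the 30 protein-coding genes 16 did. The share was 32.9% for all protein-coding genes and was not computed for noncoding genes alone. Median lengths were 25.2 kb for the 6 and 40.3 kb for the 30, and the part of length was not tested.

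In sequence, the domains of these genes held fewer repeats than others. The median soft-masked share was 15.1%, against 71.3% over all domains and 54.3% over domains in any gene's window. A median of 96.5% of sampled 31-base words occurred once in the reference, against 47.2% and 62.1%, and 17 of the 26 domains had at least 90%. The 3 residual domains had 10.2 to 12.5% repeats, and all 3 had at least 95.2% unique words. Those of the slow class differed more from their class by median, 13.3% against 74.0%, but ranged from 5.33% to 75.8%. The slow domains at Inpp5f and Herc3 (75.2% and 75.8%) were near the class median. Of the 8 slow domains, 4 lay on chromosomes 8 and 11, and the part of the chromosome was not tested. A CpG island lay in 4 of the 26 (15.4%, all domains 7.48%) and the hexamer in 11 (42.3%, all domains 28.4%). With looser island limits, an island lay in 9 of the 26, below the 41.2% over all domains.

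Imprinted genes of a second list, apart from the 36, were read the same way. Of 35 matched genes, 19 had a domain in the window (54.3%; all genes 32.3%). The median length of the 35 was 45.3 kb, against 12.9 kb for all genes, and the part of length was not tested. An intermediate domain lay at 14 (all genes 24.2%), a slow one at 4 (9.23%), a residual one at 4, or 11.4% (3.93%), and a fast one at 1 (1.75%). The residual domains were at Peg12 (17.7 kb, downstream), Dio3 (9.6 kb, over its exon and promoter), Begain (3.6 kb, at a promoter) and Cobl (1.2 kb, downstream). Cobl lies on chromosome 11, where 22.1% of all domains were residual. Dio3, the thyroid hormone deiodinase gene, and Begain lie on chromosome 12 in the wider Dlk1 region, where the 4 genes named above had none. The fast domain, 5.4 kb, lay at the promoter of Xist, the RNA of X inactivation. Slow domains were widest at Peg12 (31.8 kb), Calcr (10.5 kb) and Chrac1 (9.3 kb), and intermediate ones covered most at Calcr (12.6 kb), Htr2a (10.2 kb) and Slc22a2 (8.7 kb).

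Among 21 genes of a list on imprint maintenance and the methylation machinery, 9 had a domain in the window (42.9%; all genes 32.3%). The median length of the 21 was 41.8 kb, against 12.9 kb for all genes. Setdb1, a methyltransferase gene that is floxed in this line, had 2 residual domains of 0.9 and 0.6 kb on exons. It also had an intermediate domain of 1.5 kb in an intron. Zfp42 and Dppa3 had a slow domain upstream, of 11.1 and 2.7 kb. Zfp445, which encodes another zinc finger protein that binds imprinted control regions, had 2 intermediate domains of 9.0 kb in all, 1 of them at a promoter. Nlrp5 (4.8 kb) and Nlrp2 (4.2 kb), maternal factor genes, had 2 intermediate domains each.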

How the data were processed

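One deposited table was used. It gives 43039 H3K9me3 domains on mm10 with a class in words (the deposited file has no header), on a grid of 300 bp, and a shared colour for slow and residual. These classes are no normalized value: the deposited columns used are other than a measured unit, a category and an end coordinate. Bowtie2 2.3.4.1 and SAMtools 1.1, with deepTools and bedtools, are named in the submitters' processing notes. The sources used here do not say how reads in repeats were placed, how the Drosophila spike-in scaled the signal, or how domains and classes were called. Signal tracks, reads and HP1β were not analysed here.

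Coordinates are printed 1-based. Genes and transcript starts came from GENCODE vM21, sequence from RefSeq GRCm38.p6; 0 domains ran past a chromosome end. An overlap needed 1 bp. CpG islands were windows of 500 bp read every 50 bp and merged. Unique words were 31-mers read every 50 bp. Overlaps, distances, islands and word counts were tested on simulated data. Python 3.11.15 with pandas 2.3.3, numpy 2.4.6, numba 0.67.0, pysam 0.24.0 and matplotlib 3.10.9 was used. The genes and lists were chosen with earlier results of these data known. All 36 genes are accounted for, those with a domain 1 by 1 and those without together. Of the other lists, genes with a residual domain and up to 3 per other class with the most covered length are named; 1 name, Zfp264, had no match. The hexamer rule was fixed, but stretches on UTRs were left out. Alternatives varied the window, promoter width, overlap, domain width and island limits, and dropped genes or the widest domain. The class column holds no per-time value, so samples were grouped only to describe the design.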

Additional observations from a re-analysis of the deposited data

How the results depend on the processing

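The count of genes with a domain depended on the window: 17 with 5 kb flanks became 15 with 0 kb, 16 with 1 kb, 27 with 20 kb (all genes 53.6%) and 32 with 50 kb (all genes 73.5%). Genes with a residual domain stayed at 2 except with 50 kb, where there were 4 (all genes 9.52%). Genes with a domain at a promoter numbered 6 to 9 at widths from 500 bp to 5 kb, but 3 when only the 1 kb to either side of the annotated gene start was used (all genes 5.58%). Genes with a residual domain at a promoter numbered 1, or 2 at 2 kb and 2 at 5 kb (all genes 1.96% and 2.66%), since Rasgrf1 then counts. The residual share of 11.5% of domains ranged from 8.0% to 14.3% by number of domains or clusters over 10 other choices, and was 40.3% by covered length, or 5.86% without the Grb10 domain (chosen after the values were seen). Domains with a CpG island rose from 4 to 9 of 26 with looser island limits, and the share over all domains rose to 41.2%. The 9 of 26 is below that share, while the 4 of 26 was above the 7.48% over all domains. Islands at promoters of genes on the germline DMR list that met a domain numbered 0 of 14. With the Grb10 internal and Gnas exon 1A islands added, both of which met a domain, it was 2 of 16. That addition was chosen after the values were seen, and other unlisted islands were not sorted by germline status. Over all promoter islands the share was 3.62%. No paired analysis was possible because the result comes from no test and the table holds no sample values. The depth is unknown, so no count here has an interval.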
